A study of Homo sapiens with 18 samples.

Results

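The 9 genes described here encode proteins that write, erase or read the chromatin marks of enhancers. They were EP300 and CREBBP, KMT2C and KMT2D, KDM6A and KDM6B, KDM1A, BRD2 and MED1. They were chosen by name for these roles out of 58302 genes in the table. No measured value was in the rule, but earlier results of these data were known when the genes were chosen. All 9 were among the 16751 genes with enough counts to be tested. RNA was sequenced from U87MG cells, an established human glioblastoma line. There were 2 libraries of cells labelled as grown under normal conditions, called control here, and 2 libraries of cells given Erastin at 10 μM for 72 h. The series describes the 2 libraries of each group as biological replicates. Erastin inhibits system Xc-, the cystine importer, and induces ferroptosis, a form of cell death driven by lipid peroxidation. All results rest on 1 cell line, 1 dose and 1 time.

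Enhancers are stretches of DNA that raise transcription of a gene from a distance. An enhancer that is in use carries H3K27ac, an acetyl mark placed by EP300 and CREBBP, on top of H3K4me1, a methyl mark placed by KMT2C and KMT2D. The methyl group that competes with the acetyl mark on the same residue is removed by KDM6A and KDM6B, and the methyl mark on H3K4 is removed by KDM1A. Bromodomain proteins such as BRD2 bind acetylated histones, and MED1 is a subunit of Mediator, the complex that links factors bound at enhancers to RNA polymerase II. RNA levels of these genes were compared here, and protein or marks on chromatin were not measured in these libraries.

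In Erastin-treated U87MG cells, EP300 and CREBBP rose to 1.72 and 1.83 times the control level, and KDM1A fell to 0.623 times it. KMT2D, MED1 and KDM6B rose by less, to 1.33, 1.31 and 1.18 times, and the call of KDM6B was lost in 7 of 12 alternative analyses. KMT2C and KDM6A did not pass the test. BRD2 was also called higher, from counts so low that its level cannot be read from this table, as described with its values. In all, 6 of the 9 genes were higher and 1 was lower at an adjusted p under 0.05 by edgeR's quasi-likelihood test, against 47% of all tested genes called in either direction, 23.2% higher and 23.7% lower. Without BRD2, 5 of 8 were higher and 1 was lower, and without KDM6B as well the calls higher were EP300, CREBBP, KMT2D and MED1. The median log2 fold change was 0.39 over the 9 genes, 0.32 without BRD2 and −0.00 over all tested genes. With the study's further requirement, a log2 fold change of 1 or more in size, which 15.6% of tested genes passed, BRD2 passed on these low counts and none of the other 8 genes did.

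The libraries held 29412656 to 31513519 counts on genes. The 8 genes other than BRD2 had between 917 and 8142 counts in a library. Mitochondrial transcripts took 7.23% to 7.85% of the counts in control libraries and 2.80% to 3.54% in Erastin libraries. All 10 genes of a list that marks dividing cells were lower with Erastin, and their summed level was 1363 and 1330 CPM (counts per library scaled to equal depth by TMM) in control cells and 133 and 136 CPM in Erastin-treated cells. Within that list, MKI67 had 10919 and 10040 counts in control libraries and 617 and 791 in Erastin libraries, and TOP2A had 8524 and 8829 against 874 and 861. Both shifts moved with every difference given here, and their part in the results was not tested. Of the mesenchymal glioma markers, 2 of 6 were higher and 4 of 6 lower, with a summed level of 10716 and 11232 CPM against 5771 and 5977 CPM, a difference carried mostly by FN1 with 4961 and 5423 against 473 and 520 CPM. The summed level of 6 astrocytic and stem-like markers was 46.2 and 35.2 CPM against 8.19 and 7.16 CPM, of which NES alone made up 41.8 and 31.3 against 3.51 and 2.45 CPM. GFAP had 46 and 41 counts in control libraries and 69 and 81 in Erastin libraries, AQP4 was at 0 in every library and S100B had 0, 0, 0 and 2 counts. The summed levels of 5 neuronal, 5 microglial and 4 endothelial markers were at most 69.5, 8.50 and 6.18 CPM, with AIF1 and CLDN5 at 0 in every library. RNA came from whole cultures, so fewer cells that express a gene and less RNA per cell cannot be told apart.

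The stretches before the first exon of 3 genes are shown. They belong to the H3K27 acetyltransferase with the larger rise, the only gene called lower, and the gene with the fewest CpG dinucleotides. They were read from RefSeq on GRCh38.p14, 5′ to 3′ on the strand of the gene, with each CpG dinucleotide in capitals.
CREBBP, chr16:3880727-3880963, minus strand: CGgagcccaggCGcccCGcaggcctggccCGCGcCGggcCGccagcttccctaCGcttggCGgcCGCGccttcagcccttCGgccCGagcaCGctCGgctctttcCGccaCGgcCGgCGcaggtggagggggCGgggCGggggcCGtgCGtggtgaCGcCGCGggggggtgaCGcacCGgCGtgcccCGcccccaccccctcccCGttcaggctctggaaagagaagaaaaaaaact
KDM1A, chr1:23019218-23019447, plus strand: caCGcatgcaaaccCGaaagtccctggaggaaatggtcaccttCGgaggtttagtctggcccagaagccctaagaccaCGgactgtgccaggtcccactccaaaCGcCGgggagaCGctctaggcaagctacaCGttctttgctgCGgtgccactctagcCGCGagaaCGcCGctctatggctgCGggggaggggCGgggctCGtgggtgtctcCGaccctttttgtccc
KDM6B, chr17:7839667-7839903, plus strand: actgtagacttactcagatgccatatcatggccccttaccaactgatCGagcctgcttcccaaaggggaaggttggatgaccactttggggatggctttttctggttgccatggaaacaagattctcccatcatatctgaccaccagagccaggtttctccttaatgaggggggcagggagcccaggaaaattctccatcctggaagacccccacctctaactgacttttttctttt
These stretches held 31 CpG dinucleotides for CREBBP, 17 for KDM1A and 1 for KDM6B. Over the full 250 bases before the RefSeq start, CpG dinucleotides numbered 35 in EP300, 31 in CREBBP, 48 in KMT2C, 23 in KMT2D, 27 in KDM6A, 23 in KDM1A, 27 in BRD2, 20 in MED1 and 1 in KDM6B, beside a median of 11 over 35116 RefSeq promoters. RefSeq held 2 promoters for KDM6B, 2 for CREBBP and 4 for BRD2, and only the one nearest the annotated gene start was read. In the windows read, KDM6B was the only one of the 9 genes below that median. Transcription starts were not mapped in these data.

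Motifs were searched in the same 250 bases on both strands. The GC box GGGCGG was found before CREBBP, KMT2C, KMT2D, KDM6A, KDM1A and BRD2, which is 6 of 9 genes, and in 42.6% of all promoters. The core TGACNNNGC of the antioxidant response element, the site that NRF2 binds in oxidative stress, was found before CREBBP and KMT2D and in 10.9% of all promoters. The CCAAT box, spelled CCAAT, was found before KDM6A and MED1 and in 32.0%. The AP-1 site TGANTCA was found before KDM6A and in 6.6%, and the E2F site TTTNNCGC before KMT2D and in 5.9%. The cAMP response element TGACGTCA, the CEBP-ATF response element TGATGCAA and the cell cycle homology region TTTGAA were found before none of the 9 genes, and in 1.6%, 0.8% and 13.3% of all promoters. A match of letters does not show that a factor binds there, and no match says only that these letters are not in this window.

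EP300 (ENSG00000100393) lies on chromosome 22 of GRCh38 from 41091786 to 41180079 on the plus strand and encodes the acetyltransferase p300. Control cells gave 2788 and 2745 counts and Erastin-treated cells 4446 and 5011, which was 91.2, 88.4, 149 and 159 CPM. Every Erastin value exceeded every control value. Means were 89.8 ± 1.99 and 154 ± 7.67 CPM (SD, n = 2 each), and the log2 difference was 0.78 ± 0.0704 (SE), with an edgeR adjusted p of 3.05e-06. Of its 12500 exon bases, 1.29% are shared with exons of other genes, none of which had more than 2 counts in a library.

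CREBBP (ENSG00000005339), on chromosome 16 from 3725054 to 3880726 on the minus strand, encodes CBP, the close relative of p300. Its counts were 1293 and 1396 in control libraries and 2321 and 2581 in Erastin libraries. On the CPM scale these were 42.3, 44.9, 77.6 and 82.1, again with no overlap between the groups. Means were 43.6 ± 1.88 and 79.9 ± 3.21 CPM (SD, n = 2 each), a log2 difference of 0.87 ± 0.0796 (SE), with an edgeR adjusted p of 3.30e-06. None of its exon bases are shared with another gene. The rises of EP300 and CREBBP differed by −0.09 on the log2 scale (EP300 minus CREBBP, standard error 0.106, 95% interval −0.33 to 0.14), an interval that includes 0 and leaves room for a difference of up to 0.33 in size. Per kilobase of exon, EP300 was 2.67 and 2.44 times as abundant as CREBBP in control libraries and 2.37 and 2.41 times in Erastin libraries.

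**Figure D1:**
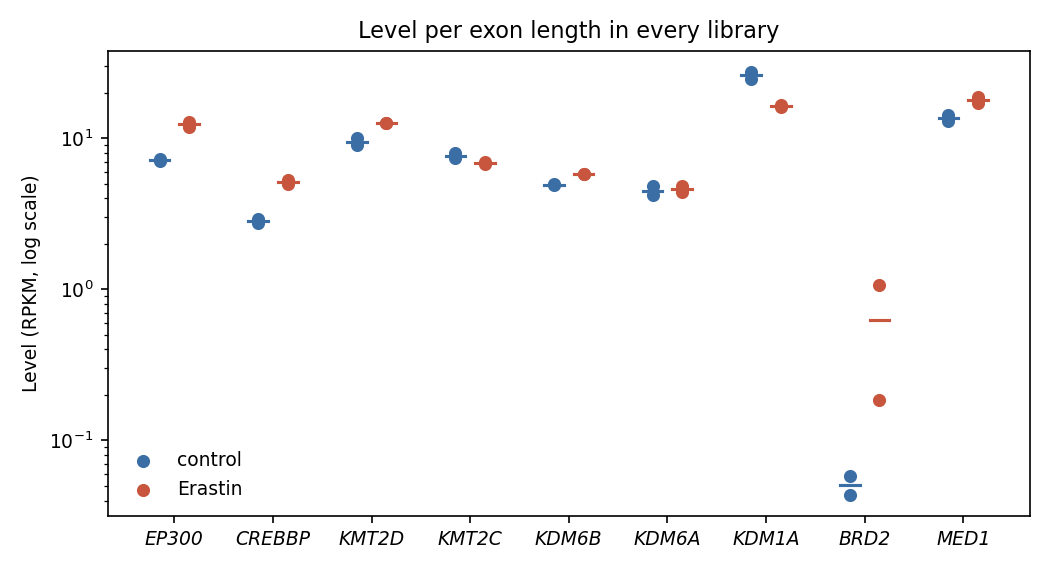
Level of the 9 genes in every library, in CPM per kilobase of exon (RPKM) on a log axis, with control libraries in blue, Erastin libraries in red and a bar at each group's mean of 2 libraries. EP300 and CREBBP are higher and KDM1A is lower in both Erastin libraries, and the counted values of BRD2, which cannot be read as its level, lie below those of the other 8 genes.

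KMT2D (ENSG00000167548) lies on chromosome 12 from 49018975 to 49059774 on the minus strand and encodes a methyltransferase that places H3K4me1 at enhancers. It had 6243 and 5715 counts in control libraries and 7721 and 8142 in Erastin libraries, or 204, 184, 258 and 259 CPM. The 2 Erastin libraries were nearly equal, and both lay above the control libraries. The rise was 0.41 ± 0.0705 (SE) on the log2 scale, with an edgeR adjusted p of 0.000468, from 194 ± 14.3 to 259 ± 0.705 CPM (SD, n = 2 each). Of the exon bases of KMT2D, 1.28% are shared with PRKAG1 or DDN-AS1, and reads that fell on more than 1 gene were not counted.

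KMT2C (ENSG00000055609), on chromosome 7 from 152134922 to 152436005 on the minus strand, encodes the second methyltransferase of this pair. Its counts were 4546 and 4951 in control libraries and 4039 and 4372 in Erastin libraries, or 149, 159, 135 and 139 CPM. Both Erastin libraries lay below both control libraries, by a margin of the same order as the spread between replicates. On the log2 scale the difference was −0.17 ± 0.0689 (SE), and with an edgeR adjusted p of 0.0649 KMT2C did not pass the test. It also did not pass in 10 of 12 alternative analyses. Its edgeR adjusted p was 0.0498 with a replicate block and 0.31 with length-dependent offsets, where the log2 difference was −0.09. Of the 31-base words of its exons, 10.3% occur again on the primary chromosomes, against at most 3.06% for the other 8 genes, and reads that matched several places were not counted.

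The log2 fold changes of KMT2C and KMT2D differed by −0.58 (KMT2C minus KMT2D, standard error 0.0986), with a 95% interval of −0.80 to −0.37 that lies below 0. Per kilobase of exon, KMT2C stood at 0.741 and 0.882 of KMT2D in control libraries and at 0.533 and 0.547 in Erastin libraries. The ratio was thus lower in both Erastin libraries. This pair and EP300 with CREBBP were among 6 pairs of related genes compared, without a p-value.

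KDM6A (ENSG00000147050) lies on chromosome X from 44873177 to 45112602 on the plus strand and encodes UTX, an H3K27 demethylase that is part of the KMT2C and KMT2D complexes. Its counts were 917 and 1067 in control libraries and 945 and 1084 in Erastin libraries, or 30.0, 34.3, 31.6 and 34.5 CPM. The groups overlapped. The log2 fold change was 0.04 (95% interval −0.20 to 0.27, adjusted p = 0.798 from edgeR), and its sign turned when control replicate 1 or Erastin replicate 2 was left out. With 2 libraries per group, a change within that interval is not excluded.

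KDM6B (ENSG00000132510), on chromosome 17 from 7839904 to 7854796 on the plus strand, encodes JMJD3, the related H3K27 demethylase. It had 1081 and 1115 counts in control libraries and 1251 and 1327 in Erastin libraries, or 35.4, 35.9, 41.8 and 42.2 CPM. Libraries of 1 group were close to each other, and the groups did not overlap. The rise was 0.24 ± 0.0900 (SE) on the log2 scale, just past the threshold with an edgeR adjusted p of 0.0471. That call was lost with DESeq2 (adjusted p = 0.108), with a replicate block (adjusted p = 0.0556 from edgeR) and with any 1 of the 4 libraries left out (adjusted p of 0.107 to 0.173 from edgeR). The log2 fold changes of KDM6A and KDM6B differed by −0.20 (standard error 0.140, 95% interval −0.51 to 0.11), an interval that includes 0.

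KDM1A (ENSG00000004487), on chromosome 1 from 23019448 to 23083689 on the plus strand, encodes LSD1, which removes methyl groups from H3K4 in the CoREST complex. It was the only one of the 9 genes called lower. Its counts were 4563 and 4178 in control libraries and 2604 and 2817 in Erastin libraries, or 149, 134, 87.1 and 89.7 CPM. Both Erastin libraries lay well below both control libraries. Means were 142 ± 10.4 and 88.4 ± 1.84 CPM (SD, n = 2 each), a log2 difference of −0.68 ± 0.0743 (SE), with an edgeR adjusted p of 1.42e-05. Its relative KDM1B had 29.8 CPM in control and 32.1 CPM in Erastin-treated cells and did not pass the test (log2 fold change 0.11, adjusted p = 0.407 from edgeR). The log2 fold changes differed by −0.79 (KDM1A minus KDM1B, standard error 0.124, 95% interval −1.06 to −0.52). Per kilobase of exon, KDM1A exceeded KDM1B 4.32 and 3.73 times in control libraries and 2.32 and 2.33 times in Erastin libraries.

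**Figure D2:**
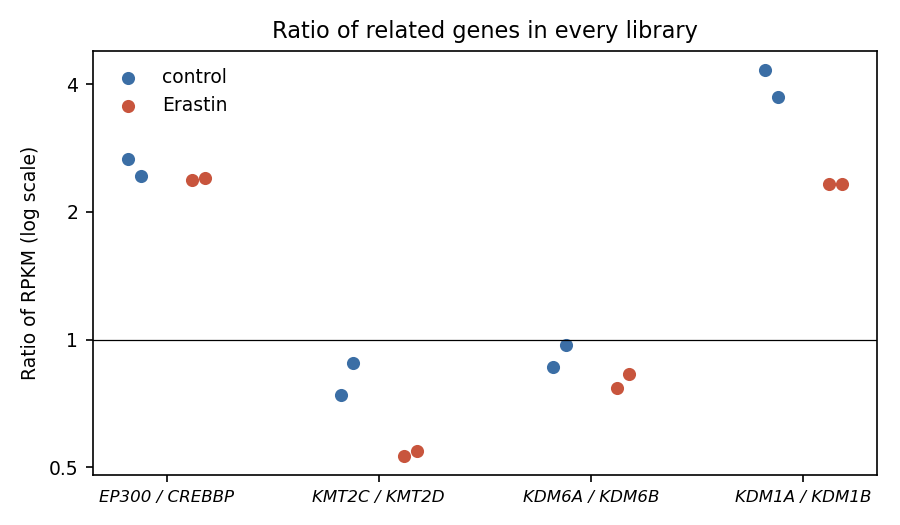
Ratio of RPKM of 4 pairs of related genes in every library, on a log axis, with control libraries in blue, Erastin libraries in red and a line at a ratio of 1. All 4 ratios are lower in both Erastin libraries than in both control libraries. That direction depends on which gene of a pair is put first, and how often ratios of other genes do not overlap was not computed. The 95% interval of the difference in log2 fold change lies below 0 for KMT2C with KMT2D and for KDM1A with KDM1B. It includes 0 for the other pairs drawn. Pairs with BRD2 rest on its low counts and are not drawn.

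MED1 (ENSG00000125686) lies on chromosome 17 from 39404285 to 39451286 on the minus strand and encodes the Mediator subunit that nuclear receptors bind. Its counts were 3190 and 2938 in control libraries and 3719 and 4308 in Erastin libraries, or 104, 94.6, 124 and 137 CPM. The groups did not overlap. The rise was 0.39 ± 0.0784 (SE) on the log2 scale, with an edgeR adjusted p of 0.00142, from 99.5 ± 6.89 to 131 ± 9.03 CPM (SD, n = 2 each).

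BRD2 (ENSG00000204256) lies on chromosome 6 from 32968660 to 32981505 on the plus strand, in the major histocompatibility complex, and encodes a BET protein with bromodomains that bind acetylated histones. It had 13 and 10 counts in control libraries and 233 and 43 in Erastin libraries, or 0.425, 0.322, 7.79 and 1.37 CPM. The Erastin libraries lay above the control libraries and differed widely from each other, with a mean of 4.58 ± 4.54 CPM (SD, n = 2) against 0.374 ± 0.0730 CPM (SD, n = 2). The fitted log2 difference was 3.60 ± 0.701 (SE), with an edgeR adjusted p of 0.00124, and it was 1.86 without Erastin replicate 1, which holds most of the counts.

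Of the 31-base words in the exons of BRD2, 97.9% occur also on the 261 alternate scaffolds of GRCh38, which carry other versions of regions such as the major histocompatibility complex. The median over 107 genes of the enhancer machinery was 0.403%, and the other 8 genes had at most 1.71%. A read that matches both a chromosome and an alternate scaffold counts as matching several places, and such reads were not counted. Whether the index used by the authors held these scaffolds is not given in the sources used here. Of the 107 genes, the only other one with at least 50% was CDK7, a kinase of the general transcription machinery, with 96.9% and with 7, 12, 23 and 12 counts. MED16, with 47.1%, was not low. The part of the alternate scaffolds in the counts of BRD2 was not tested, and its values are given as what was counted, not as a level of BRD2 in the cells. In the same libraries its relative BRD3 fell, with a log2 fold change of −0.63 (adjusted p = 0.000271 from edgeR). Of the exon bases of BRD3, 18.6% are shared with exons of other genes, and of those of BRD2, 11.9%. The fitted difference of BRD2 from BRD3, 4.23 (95% interval 2.68 to 5.78), rests on the same low counts.

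**Figure D3:**
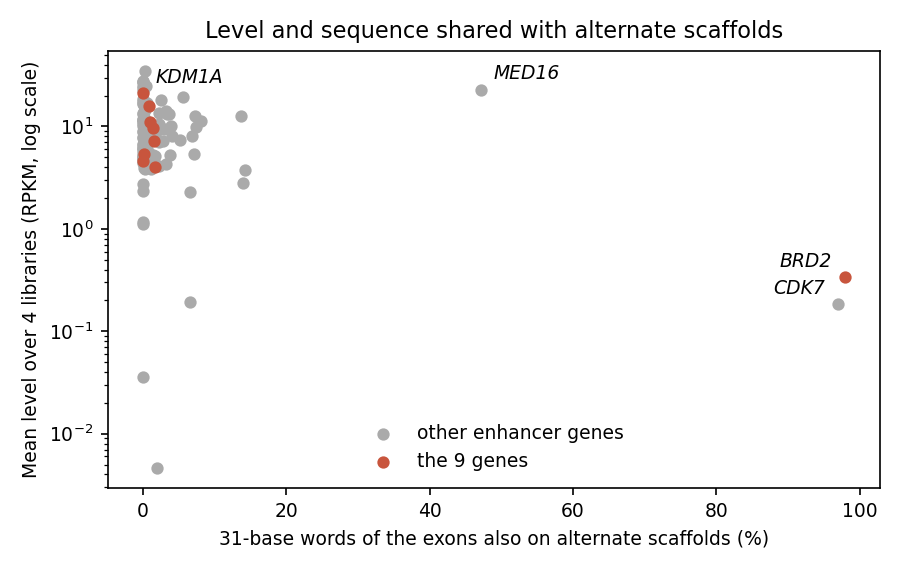
Mean level over 4 libraries (RPKM, log axis) of genes of the enhancer machinery with a count, against the percent of the 31-base words of their exons that occur also on alternate scaffolds, with the 9 genes in red and others in grey. BRD2 and CDK7 stand at 97.9% and 96.9% with low levels, and MED16 at 47.1% with a high one.

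Across the 9 genes, the Erastin values all exceeded the control values for 6 and all stayed under them for 2, so that the groups did not overlap for 8 of 9 genes, beside 73.6% of all tested genes. Apart from BRD2, the log2 fold changes kept their sign in 12 alternative analyses for each gene except KDM6A. They ranged from 0.73 to 0.85 for EP300, 0.83 to 0.95 for CREBBP, 0.33 to 0.49 for KMT2D, 0.32 to 0.46 for MED1 and −0.76 to −0.61 for KDM1A.

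**Figure D4:**
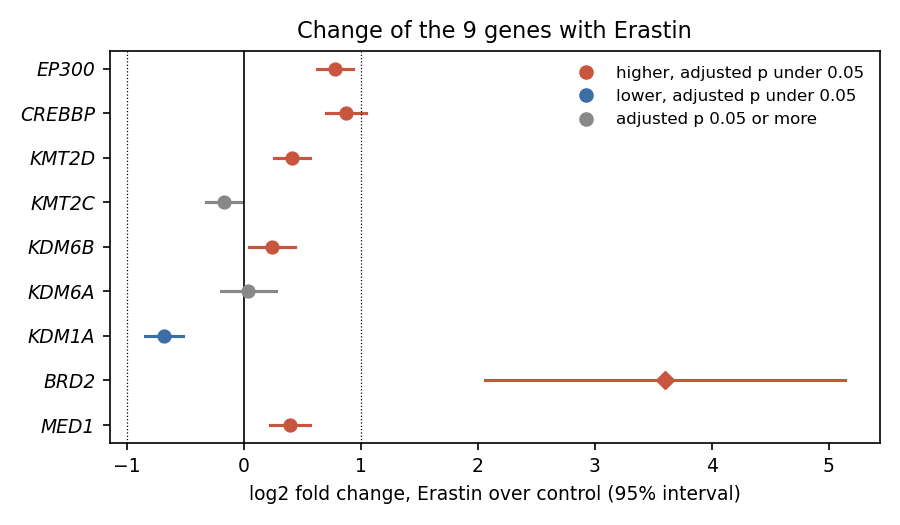
Log2 fold change of the 9 genes, Erastin over control, with 95% intervals from edgeR, red for genes called higher, blue for lower and grey for genes that did not pass the test; the diamond marks BRD2 and dotted lines mark the study's limit of 1 in size. EP300 and CREBBP lie at 0.78 and 0.87, KDM1A at −0.68, and the interval of BRD2 is the widest.

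On the scale of CPM per kilobase of exon (RPKM), KDM1A was the most abundant of the 8 genes other than BRD2 in control cells, at 26.1 RPKM. MED1 (13.6), KMT2D (9.48), KMT2C (7.66), EP300 (7.18), KDM6B (4.91), KDM6A (4.51) and CREBBP (2.82) followed. BRD2 is left out of this order, since its counted values of 0.0509 and 0.624 RPKM cannot be read as levels. The means of KMT2C and EP300 and those of KDM6B and KDM6A lay within 2 SD of each other. In Erastin-treated cells the order was MED1 (17.8), KDM1A (16.3), KMT2D (12.6), EP300 (12.3), KMT2C (6.82), KDM6B (5.79), CREBBP (5.16) and KDM6A (4.63). There, MED1 and KDM1A, KMT2D and EP300, and CREBBP and KDM6A lay within 2 SD of each other. The order of MED1 and KDM1A in Erastin-treated cells thus rested on a gap within 2 SD, though their libraries did not overlap. In control cells KDM1A stood 12.5 RPKM above MED1, by more than 2 SD. EP300 lay within 2 SD of KMT2C in control cells and stood 5.51 RPKM above it in Erastin-treated cells.

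The other genes of the enhancer machinery were read from a list of 98 genes in 8 roles. Of these, 93 were tested, 27 were higher and 21 lower at an adjusted p under 0.05 by edgeR, which is 51.6% beside 47% of all tested genes. Their log2 fold changes had a median of 0.06 and lay between −0.72 and 2.33. The 5 untested genes were KAT6B, MLLT3 and MED22, which were at 0 in every library, and RCOR2 and CECR2, with at most 6 counts. The number higher was smaller when either Erastin library was left out. The number lower was 13 without Erastin replicate 1.

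Among writers, 3 of 6 other H3K4 methyltransferases were higher and 0 lower, beside 23.2% and 23.7% of all tested genes. Those higher were SMYD3, SETD7 and SETD1B (log2 fold change 0.25 for SETD1B), and KMT2A, KMT2B and SETD1A did not pass the test. SMYD3, a methyltransferase of lysines, rose most, from 512 and 545 counts to 2551 and 2746, a log2 difference of 2.33 ± 0.0861 (SE) with an edgeR adjusted p of 1.87e-09. Of 10 subunits of the KMT2 complexes, 4 were higher and 2 lower. HCFC1, which tethers such complexes to promoters, rose by 0.59 on the log2 scale from 197 CPM, and PAXIP1, a subunit particular to the KMT2C and KMT2D complexes, fell by 0.40 from 45.0 CPM. Of 7 other histone acetyltransferases tested, 2 were higher and 2 lower. KAT5, which encodes TIP60, rose by 0.89 from 13.0 CPM, with 29.9% of its exon bases shared with other genes. KAT2B, which encodes PCAF, a partner of p300, fell by 0.57 from 51.4 CPM.

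Among erasers, 1 of 7 other H3K4 demethylases and CoREST subunits tested was higher and 1 lower. KDM5C, a demethylase of H3K4, rose from 175 to 254 CPM (log2 fold change 0.53), and PHF21A, a CoREST subunit that binds unmethylated H3K4, fell from 81.5 to 51.3 CPM (log2 fold change −0.67, adjusted p = 1.69e-05 from edgeR), close to the value of KDM1A. Of 10 class I histone deacetylases and corepressors, 2 were higher and 5 lower, with a median of −0.21. The scaffold proteins SIN3A and SIN3B went opposite ways, SIN3A from 80.4 to 48.7 CPM (log2 fold change −0.72) and SIN3B from 107 to 141 CPM (log2 fold change 0.39).

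Among readers and the steps that follow, 4 of 13 other acetyl-lysine readers tested were higher and 4 lower. BRPF3, a scaffold of acetyltransferase complexes, rose from 17.4 to 40.9 CPM (log2 fold change 1.24, adjusted p = 1.55e-05 from edgeR), and BRD3 had the largest fall of that role. Of 30 other Mediator subunits tested, 9 were higher and 7 lower, with a median of −0.01 beside 0.39 for MED1. Of 10 genes that act for or against the release of RNA polymerase II halted early in a gene, AFF4 and HEXIM1 were higher and 0 lower. HEXIM1 holds the elongation factor P-TEFb inactive, and so acts against release. AFF4, the scaffold of the super elongation complex, rose from 268 to 525 CPM (log2 fold change 0.97, adjusted p = 1.88e-07 from edgeR).

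**Figure D5:**
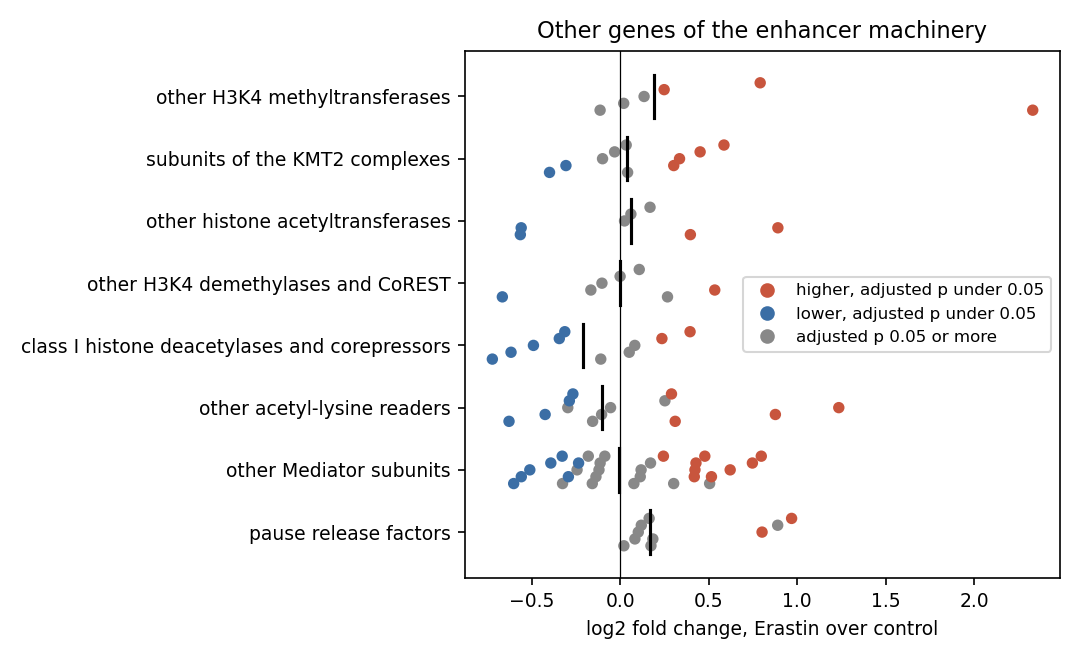
Log2 fold change, Erastin over control, of 93 other genes of the enhancer machinery by role, with 1 point a gene, red for higher and blue for lower at an adjusted p under 0.05, grey for the rest and a bar at the median. SMYD3 is the point at 2.33 and BRPF3 that at 1.24, and genes called higher and genes called lower both occur in 6 of the 8 roles.

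Likeness of pattern was measured as the root mean square difference of centred log2 CPM over the 4 libraries, among genes whose mean reached 10 CPM. Closest to CREBBP were TMEM167B (0.0194), FERMT3 (0.0216) and LUZP1 (0.0234), and 323 of 9507 genes lay within 0.1. Closest to KDM1A were TSPAN9 (0.00853), RPL14 (0.0162) and MAD2L2 (0.0175), and 480 genes lay within 0.1. No gene lay within 0.1 of BRD2, and the nearest were PDXDC1 (0.615), SQSTM1 (0.669) and GADD45A (0.680). With 4 libraries, such lists are long and their order within 0.1 carries little.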

How the data were processed

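RNA of U87MG cells was sequenced in 4 of 18 samples, and the other 14 (ChIP-seq and HiChIP) were not analysed here. The authors deposited raw read counts per gene in 1 table with 4 library columns. Per its header, featureCounts 2.0.3 wrote it with Ensembl release 90 (GRCh38), without strand. The submitters' processing notes give featureCounts 2.0.4 and HISAT2 2.1.0, and the methods name htseq-count. Mates were counted as separate reads, and reads on several genes or places were left out. The deposited values of 1 column were read with the unit of estimated counts and rounded, which changed 0 values.

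Symbols matched 57532 of 58302 identifiers. Libraries were grouped by their labels and fitted with edgeR 4.0.16 (R 4.3.3): filterByExpr with a minimum count of 10, TMM (factors 0.971 to 1.02) and the two-sided quasi-likelihood test, adjusted by Benjamini-Hochberg over 16751 genes and called under 0.05. The biological coefficient of variation was 10.3%. The smallest p of an exact permutation test of this design is 0.333, so p-values rest on a spread estimated across genes. Precision is set by counting and by 2 libraries per group, and reads without molecular identifiers are not independent molecules. RPKM used the deposited exon length. The steps were tested on simulated data.

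Named were the 9 genes, the largest rise and fall called in each role at a mean of at least 1 CPM, BRD3, KDM1B, MKI67, TOP2A, and the 3 genes most like the largest rise and fall; 1 further gene is not reported here. CREBBP was added there after BRD2's counts were seen, and other genes were named after their values were seen. The 9 genes and all lists were chosen with earlier results of these data known. Alternatives were DESeq2 1.42.0, RLE factors, library totals, no filter, at least 10 counts in every library, a replicate block, length-dependent offsets, counts divided by 2 and leaving out each library. Sequences came from RefSeq, and all 9 genes matched.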

Additional observations from a re-analysis of the deposited data

How the results depend on the processing

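Of 12 alternatives, all kept the direction and call of EP300, CREBBP, KMT2D, KDM1A, MED1 and BRD2, whose adjusted p was at most 0.043. KDM6B lost its call with DESeq2 (log2 fold change 0.24, adjusted p = 0.108), with no low-count filter (0.23, adjusted p = 0.0875 from edgeR), with the replicate block (0.24, adjusted p = 0.0556 from edgeR) and without any 1 library (0.22 to 0.24). KMT2C passed the test with the replicate block (−0.17, adjusted p = 0.0498 from edgeR) and without control replicate 1, with a range of −0.22 to −0.13 over the libraries left out. It did not pass in the other 10 alternatives, and was −0.09 with length-dependent offsets (adjusted p = 0.31 from edgeR). KDM6A reversed without control replicate 1 (−0.0582) and without Erastin replicate 2 (−0.0256), with a range up to 0.13. BRD2 lay between 1.86 and 4.37. The 9 genes held 2 lower genes with the replicate block, and 1 to 2 when each library was left out. The wider list held 13 to 21 lower genes when each library was left out, with 13 without Erastin replicate 1. The number higher in that list was also smaller when either Erastin library was left out. The cause was not tested. Leaving out any library, control or Erastin, leaves fewer samples and 1 lone library assumed to vary like the other group. The labels name no shared batch for same-numbered libraries, and the differences between replicates of the groups had a correlation of 0.0293 across 16751 genes, so the replicate numbers were not taken as pairs. With the block, 5 of the 9 genes were higher and 2 lower, and 4030 and 4077 of all genes. Over all alternatives, 2973 to 4336 of all tested genes were higher and 3282 to 4153 lower. With library totals 4336 were higher and 3612 lower, against 3892 and 3977, and the median of all genes stayed between −0.02 and 0.05. Precision is limited by 2 libraries per group for all genes. For BRD2 the Erastin libraries, with 233 and 43 counts, were far apart at near-equal totals.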

Other observations

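Some patterns within the wider list were picked after their values were seen and carry no test of the group. The kinase module of Mediator, which controls whether the complex can bind RNA polymerase II, was split. MED13 rose from 3237 and 3488 counts in control libraries to 5578 and 6050 in Erastin libraries (log2 fold change 0.80, adjusted p = 1.98e-06 from edgeR). Its partner cyclin C, encoded by CCNC, fell from 2753 and 2944 counts to 1731 and 2004 (log2 fold change −0.60, adjusted p = 5.76e-05 from edgeR). The kinase gene CDK19 fell too, by 0.51 on the log2 scale, and MED12, which activates the kinase, by 0.24. CDK8 and MED13L did not pass the test, at 0.12 and −0.16. Of the 6 genes of this module that the list held, MED13 was the only one called higher.

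Several more genes of the wider list changed. SETD7, a lysine methyltransferase, rose from 134 to 232 CPM (log2 fold change 0.79), and DPF2, a BAF complex subunit that reads histone marks, from 53.8 to 98.8 CPM (log2 fold change 0.88). HEXIM1, the inhibitor of P-TEFb, rose from 46.1 to 80.3 CPM (log2 fold change 0.80, adjusted p = 7.13e-06 from edgeR), whereas CDK9, the kinase of P-TEFb, had 68.9 and 74.0 CPM and did not pass the test. HDAC2, a deacetylase that shares complexes with KDM1A, fell from 169 to 120 CPM (log2 fold change −0.49, adjusted p = 0.000102 from edgeR), whereas HDAC1 and RCOR1 of the same complexes did not pass it, at 0.08 and −0.17.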
